A study of Mus musculus with 6 samples.

Results

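The factors described here are 33 genes that build the heart in the embryo, chosen by gene name as a fixed set among the 54532 genes of the deposited table. They comprise the GATA factors Gata4, Gata5 and Gata6, the homeobox genes Nkx2-5, Irx1 to Irx5, Isl1, Shox2, Hopx, Meis1, Meis2 and Prox1, the T-box genes Tbx1, Tbx2, Tbx3, Tbx5 and Tbx20, the MADS-box genes Srf, Mef2a, Mef2c and Mef2d, and the basic helix-loop-helix genes Hand1 and Hand2. The forkhead genes Foxp1 and Foxc1, the Krüppel-like gene Klf13 and the cofactor genes Myocd, Zfpm1, Zfpm2 and Cited2 complete the set. All 33 were in the table, and 28 of them reached 1 FPKM in at least 3 libraries and entered the test. Hand1, Shox2, Gata5, Tbx1 and Isl1 stayed under this filter and are described by their reads.

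The study sequenced RNA of 6 wild-type (WT) ICR mouse hearts, an outbred stock, at day 4. In the control group (n = 3) citric acid had been given to the mothers by intraperitoneal injection in pregnancy. In the STZ group (n = 3) the mothers had received STZ, read here as streptozotocin, a beta-cell toxin used to raise maternal blood glucose. The labels do not give the sex of the pups, the litter, the part of the heart taken or whether animals were pooled, so a p-value here measures the spread between these libraries only.

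Heart formation rests on a small network of transcription factors that bind each other and switch on one another's genes. GATA4, NKX2-5, TBX5 and TBX20, MEF2 and SRF act together on the genes of the contractile apparatus, and other members divide the heart into atria, ventricles, valves and pacemaker tissue. Many stay active in the newborn heart, while those of progenitor cells, such as Isl1, are largely switched off in working muscle.

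Levels are given as FPKM, reads per kilobase of gene and relative to a total that the authors used for scaling a library. Comparisons between genes rest on the single length given for each gene. Whole reads could be recovered from the values, and libraries held between 16707268 and 18082599 reads. This scaling total was 0.985 to 1.03 times the recovered reads in 5 libraries and 1.21 times in control 2, so values of control 2 are lower by that factor than its reads alone would give.

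Before any comparison, the labelled tissue was held against cell type markers, and control 2 stood apart. The summed level of 10 atrial markers was 6355 FPKM in control 2, and between 56.5 and 141 FPKM in the other 5 libraries. All 10 atrial markers were highest in control 2. The atrial myosin light chain gene Myl7 was at 3930 FPKM in control 2 and at 5.03, 18.3, 5.81, 3.43 and 2.92 FPKM in controls 1 and 3 and STZ 1 to 3. Sln, the sarcolipin gene of atrial muscle, was at 277.9 FPKM in control 2, at 0.866 FPKM in control 3 and at 0 in the other 4. All 10 cardiomyocyte markers were lowest in control 2, whose sum was 7028 FPKM against 13992 to 16399 FPKM elsewhere, and so were 6 of 7 ventricular markers (2052 FPKM against 4133 to 5392 FPKM). Slc5a1, the remaining ventricular marker, was at or below 0.0290 FPKM throughout. Thus 5 libraries carried ventricular and almost no atrial transcripts, although all 6 are labelled heart.

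Control 2 also held transcripts of tissue beside the heart. Ucp1, which defines brown fat, was at 213 FPKM in control 2 and at 0 in every other library, and the thymocyte gene Cd8a at 24.9 FPKM against at most 0.439 FPKM. Of the markers of neural crest, Schwann cells and neurons, 8 of 8 were highest in control 2, with a summed level of 50.1 FPKM against 2.04 to 3.59 FPKM. The same held for 9 of 11 epicardial, 5 of 8 endocardial and valve, 9 of 10 fibroblast, 7 of 8 macrophage and 6 of 6 erythroid markers. It also held for 6 of 10 markers of lung, thymus, liver and brown fat. Smooth muscle and pericyte markers were split, with 3 of 8 highest and 3 lowest in control 2. Of 8 endothelial markers 1 was highest and 4 were lowest there. Over all genes tested, control 2 was highest at 27.4% and lowest at 41.7%. Without control 2, the groups' ranges of the summed cardiomyocyte level (13992 to 16399 FPKM in controls, 14319 to 15455 FPKM in STZ) overlapped, while those of the fibroblast sum (1034.5 and 1156 FPKM in controls, 956 to 996 FPKM in STZ) did not. In that comparison 10 of 10 tested fibroblast markers were lower in STZ libraries (median log2 difference -0.16). So were 8 of 8 endothelial (-0.07), 5 of 5 erythroid (-0.45) and 9 of 10 epicardial markers (-0.19). The same held for 6 of 7 tested smooth muscle and pericyte (-0.09), 4 of 6 endocardial and valve (-0.08) and 3 of 4 conduction markers (-0.10). In the other direction, 5 of 6 tested ventricular (0.08), 6 of 8 macrophage (0.04), 7 of 10 cardiomyocyte (0.02) and 5 of 9 atrial markers (0.0044) were higher. Over all genes tested, 6289 of 12431 were lower (median -0.0016). None of these markers passed the test (limma, adjusted p of 0.05), and their part in the results below was not tested. In bulk tissue, fewer cells of a type and less RNA per cell cannot be told apart. The differences of the tested factors are therefore given with all 6 libraries and without control 2.

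Levels differed widely between the factors. Hopx, an atypical homeodomain protein that binds no DNA and works through other factors, had the highest mean over the 6 libraries (133 FPKM). It was followed by Nkx2-5, the homeobox gene of early heart muscle (79.4 FPKM), Gata4 (54.8 FPKM), Srf (46.01 FPKM) and Tbx20 (42.6 FPKM). Isl1 was lowest, with a mean of 0.134 FPKM that came almost wholly from control 2. Control means and SDs of Srf (42.9 ± 10.8 FPKM) and Tbx20 (42.6 ± 2.77 FPKM, SD, n = 3 each) overlapped, so their order is not separated by these data.

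**Figure D1:**
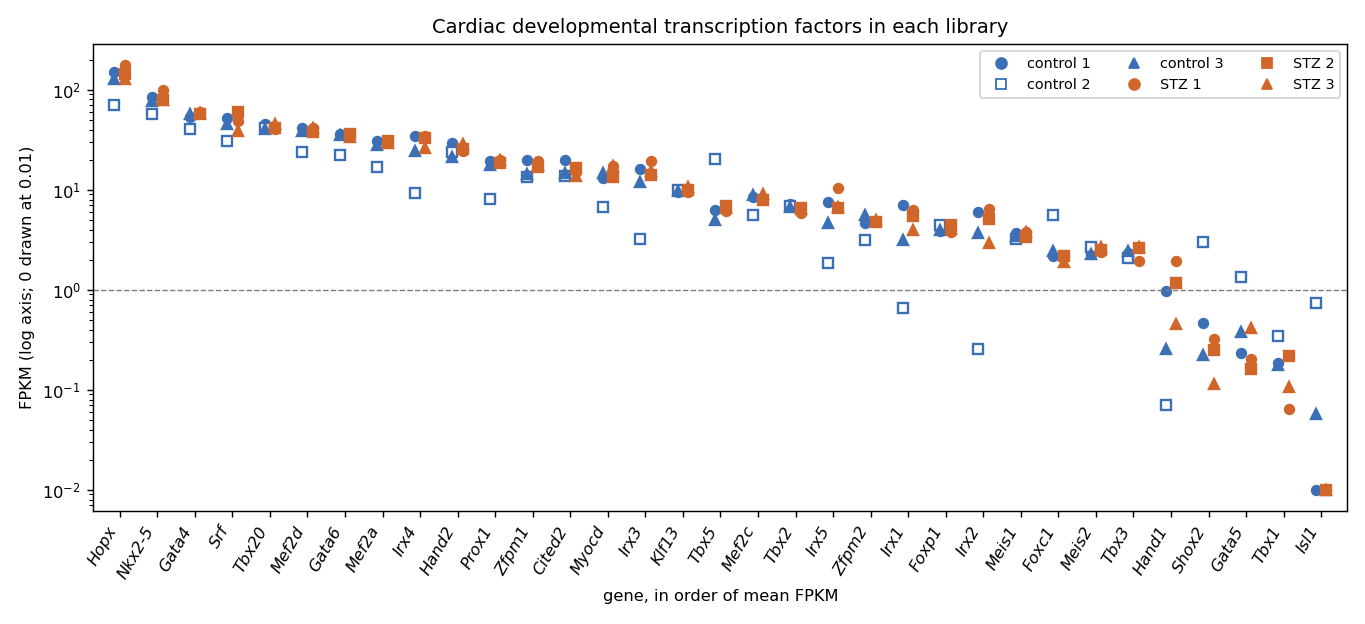
FPKM on a log axis for the 33 factors in order of their mean, with 1 symbol per library (blue controls, orange STZ, control 2 drawn open) and the dashed line at 1 FPKM. Filled blue and orange symbols lie close together for most genes, while the open square departs furthest at Irx1, Irx2, Hand1, Shox2 and Isl1.

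The Iroquois homeobox genes lie in 2 clusters, with Irx1 (GRCm38 chromosome 13, 71957921 to 71963723, minus strand), Irx2 (72628820 to 72634198, plus strand) and Irx4 (73260479 to 73269608, plus strand) in one. Irx3 (chromosome 8, 91798525 to 91802067, minus strand) and Irx5 (92357625 to 92376286, plus strand) lie in the other. IRX4 is the ventricle-restricted member, and IRX3 and IRX5 set ion channel expression across the ventricular wall. Irx2, Irx3 and Irx4 were low in control 2, and Shox2 and Isl1 were high there. The 250 bases before the RefSeq start of each (GRCm38.p6) are shown, for Irx2 (chr13:72628570-72628819, plus strand), Irx3 (chr8:91801655-91801904, minus), Irx4 (chr13:73260247-73260496, plus), Shox2 (chr3:66981772-66982021, minus) and Isl1 (chr13:116309689-116309938, minus). Irx1 and Irx5, also low in control 2, had no RefSeq window on hand. Whether these sequences bear on the levels in control 2 was not tested. Capitals mark matches, on either strand, to the motifs listed in the paragraph that follows.
Irx2: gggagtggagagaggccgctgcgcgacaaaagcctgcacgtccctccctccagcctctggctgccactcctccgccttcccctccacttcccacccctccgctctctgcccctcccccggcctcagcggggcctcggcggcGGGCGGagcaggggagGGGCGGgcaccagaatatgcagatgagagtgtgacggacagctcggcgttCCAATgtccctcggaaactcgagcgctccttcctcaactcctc
Irx3: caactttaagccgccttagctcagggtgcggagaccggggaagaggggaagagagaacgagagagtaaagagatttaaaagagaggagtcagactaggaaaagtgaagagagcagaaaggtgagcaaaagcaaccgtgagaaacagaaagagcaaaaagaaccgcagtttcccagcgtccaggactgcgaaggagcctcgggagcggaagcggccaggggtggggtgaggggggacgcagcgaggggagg
Irx4: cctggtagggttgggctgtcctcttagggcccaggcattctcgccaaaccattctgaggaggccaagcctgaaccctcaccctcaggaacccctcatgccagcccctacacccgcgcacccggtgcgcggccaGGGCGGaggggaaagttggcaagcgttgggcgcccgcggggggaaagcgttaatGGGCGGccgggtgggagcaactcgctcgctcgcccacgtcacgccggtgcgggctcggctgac
Shox2: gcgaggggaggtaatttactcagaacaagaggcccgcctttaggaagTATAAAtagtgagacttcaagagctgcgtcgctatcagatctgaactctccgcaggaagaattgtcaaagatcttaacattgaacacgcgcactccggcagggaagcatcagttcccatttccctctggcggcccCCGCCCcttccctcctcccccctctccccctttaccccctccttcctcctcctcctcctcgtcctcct
Isl1: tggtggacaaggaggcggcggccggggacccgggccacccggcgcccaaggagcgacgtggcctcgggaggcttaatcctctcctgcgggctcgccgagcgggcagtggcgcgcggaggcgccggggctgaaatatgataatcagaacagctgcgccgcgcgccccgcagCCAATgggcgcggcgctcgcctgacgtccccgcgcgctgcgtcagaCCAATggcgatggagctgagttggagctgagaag

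Irx2 and Irx4 each held 2 GC boxes (GGGCGG) and Isl1 held 2 CCAAT boxes. Irx2 held 1 CCAAT box, Shox2 held 1 GC box and 1 match to the TATA letters (TATAAA, at -203 to -198 from the start), and Irx3 held no match. The Irx3 window lies wholly inside the gene span given above, so it does not cover the bases upstream of that span. The Irx4 window also ends inside its gene's span. RefSeq promoters were on hand for 23 of the 33 factors, as 30 windows. Matches were counted beside all 32851 windows of the same length. GC boxes were in 18 of 30 windows (60%, and 32.7% of all), CCAAT boxes in 14 (46.7% and 33.9%) and TATAAA in 6 (20% and 12.4%). The CArG box, to which SRF binds, matched in 2 windows (6.67% and 1.47%), those of Srf itself and of the upstream start of Hopx. A GATA site (AGATAA) matched 1 window, that of Hand2 (3.33% and 9.99%), a T-box site (AGGTGT) 2 (6.67% and 11.8%) and a MEIS site (TGACAG) 3 (10% and 15.9%). An NKX2-5 site (TNAAGTG, 10.1% of all) and the MEF2 site (2.92% of all) matched none. The factors' windows were rich in CpG, with a median of 17 CpG per 250 bases against 6 over all windows, from 1 at a start of Mef2c to 34 at a start of Foxp1. These matches describe letters in a short window and do not show binding.

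Irx2, of the ventricular septum and inner wall in mouse, was at 5.95, 0.256 and 3.69 FPKM in controls 1 to 3 and at 6.47, 5.17 and 2.96 FPKM in STZ 1 to 3. Irx1 was at 7.005, 0.660 and 3.14 FPKM in control and at 6.27, 5.43 and 3.99 FPKM in STZ libraries. Both genes were far lowest in control 2, at 0.0529 (Irx2) and 0.128 (Irx1) times the mean of the other 5, and the other 5 libraries were mixed between the groups. With all 6 libraries the log2 difference, STZ minus control on the log2(FPKM + 1) scale, was 0.72 for Irx2 (SE 0.614, 95% interval -0.74 to 2.18) and 0.69 for Irx1 (SE 0.525, -0.55 to 1.94). Without control 2 these were -0.01 and 0.10, so for Irx2 the direction turned.

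Irx3 was at 16.2, 3.22 and 12.1 FPKM in control and at 19.2, 14.1 and 15.6 FPKM in STZ libraries. Irx5 was at 7.64, 1.87 and 4.71 FPKM in control and at 10.3, 6.64 and 6.74 FPKM in STZ libraries. Irx5 had the lowest unadjusted p of the 28 tested factors, with a log2 difference of 0.75 (SE 0.391, 95% interval -0.18 to 1.68; limma, Benjamini-Hochberg adjusted p = 0.922). The difference of Irx3 was 0.81 (SE 0.492, -0.36 to 1.97). Control 1 lay within the STZ range for both genes, so the groups overlapped. Without control 2 the difference was 0.32 for Irx5 and 0.20 for Irx3, the largest values of any tested factor there.

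Irx4 was at 34.7, 9.34 and 24.4 FPKM in control and at 34.7, 32.7 and 26.4 FPKM in STZ libraries, and its difference of 0.61 (SE 0.427) was 0.09 without control 2. Summed over the 5 Iroquois genes the level was 15.3 FPKM in control 2, 48 and 71.4 FPKM in controls 3 and 1, and 55.6 to 77.0 FPKM in STZ libraries. Irx4 made up 45.1 to 51.1% of this sum in 5 libraries and 60.9% in control 2, where Irx2 made up 1.67%, against 5.31 to 8.41% elsewhere. Control 2 held 0.306 times the mean of the other 5 for Irx4, 0.259 for Irx5 and 0.209 for Irx3. Over the 10 cardiomyocyte markers this ratio ran from 0.233 for Pln to 0.755 for Tnni3, and over the 6 ventricular markers that were lowest there from 0.274 for Myh7 to 0.453 for Myl2. Irx1, Irx2 and Irx3 thus lay below every marker on either list, Irx3 (0.209) close to Pln (0.233). Irx5 (0.259) lay below every ventricular marker, near Myh7 (0.274), and Irx4 lay above Myh7. In control 2 these ratios rest on 37 reads for Irx1, 18 for Irx2 and 190 for Irx3, and their counting error was not worked out.

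Hand1, a factor of the left ventricle, stayed under the filter. Its reads were 33, 3 and 9 in controls 1 to 3 and 69, 39 and 17 in STZ 1 to 3, or 0.981, 0.0702 and 0.257 FPKM against 1.94, 1.16 and 0.459 FPKM. Exact 95% Poisson intervals, which cover counting error only, ran from 1.51 to 2.46 FPKM in STZ 1 and from 0.676 to 1.38 FPKM in control 1. Those of STZ 2 (0.826 to 1.59 FPKM) and STZ 3 (0.267 to 0.735 FPKM) overlapped the interval of control 1. Groups overlapped, since control 1 lay above STZ 3 (exact two-sided permutation test, p = 0.2, where 3 against 3 libraries cannot go below 0.1). Its partner Hand2, expressed mainly in the right ventricle in the mouse embryo, was at 29.7, 24.2 and 21.5 FPKM and at 24.4, 25.6 and 28.9 FPKM, with a log2 difference of 0.07 (SE 0.147) and 0.05 without control 2. Hand2 thus made up 92.6 to 99.7% of the summed HAND level in every library.

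**Figure D2:**
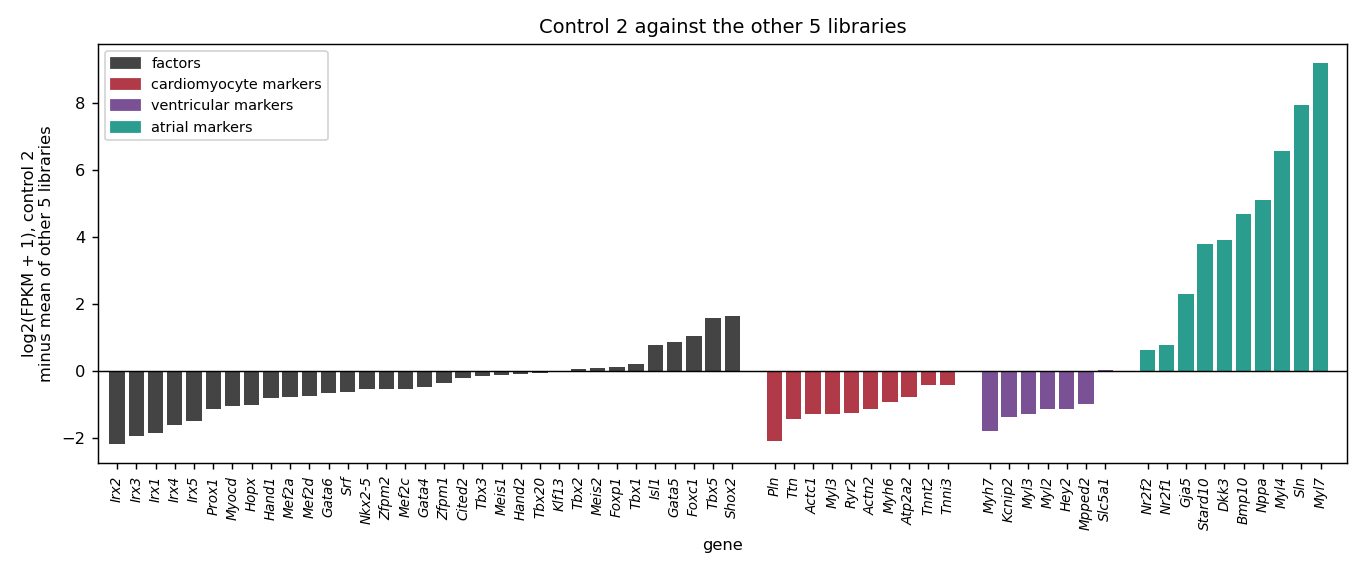
Bars give log2(FPKM + 1) in control 2 minus the mean of the other 5 libraries, for the 33 factors and for cardiomyocyte, ventricular and atrial markers. Most factors lie below 0 as the cardiomyocyte markers do, Irx2 and Irx3 are the lowest of them, and Tbx5 and Shox2 lie above 0, as all atrial markers do.

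Tbx5, Shox2 and Isl1 were highest in control 2. Tbx5 (chromosome 5, 119832668 to 119885219, plus strand), required in atria and left ventricle, was at 6.25, 20.3 and 5.02 FPKM in control and at 6.11, 6.84 and 6.55 FPKM in STZ libraries. Control 2 was 3.29 times the mean of the other 5, which lay within 1.36-fold of each other. The log2 difference of -0.38 (SE 0.443, 95% interval -1.43 to 0.67) turned to 0.18 without control 2. Shox2, a homeobox gene of the sinus node, had 211 reads in control 2 and between 7 and 26 in each other library, 10.8 times their mean in FPKM. Isl1, the progenitor and sinus node factor, had 63 reads in control 2, 4 in control 3 and 0 in the other 4 libraries, where 3 reads would be 0.0408 to 0.0451 FPKM. The pacemaker channel gene Hcn4 was at 3.14 FPKM in control 2 and at 0.653 to 1.54 FPKM elsewhere. Of the 9 conduction markers, 4 were highest and 3 lowest in control 2.

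Gata5, the GATA factor of endocardium, had 95 reads in control 2 (1.36 FPKM) and 9 to 25 reads elsewhere. Tbx1, of the pharynx and outflow tract, had 26 reads in control 2 and 4 to 13 elsewhere. Foxc1, a forkhead gene of outflow tract and valve mesenchyme, was at 2.17, 5.55 and 2.45 FPKM in control and at 2.20, 2.18 and 1.92 FPKM in STZ libraries. Its difference was -0.42 (SE 0.271, 95% interval -1.07 to 0.22) and -0.10 without control 2. Tbx5, Foxc1, Shox2, Gata5, Tbx1 and Isl1 were the 6 factors highest in control 2, and none of them separated the groups once it was left out.

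**Figure D3:**
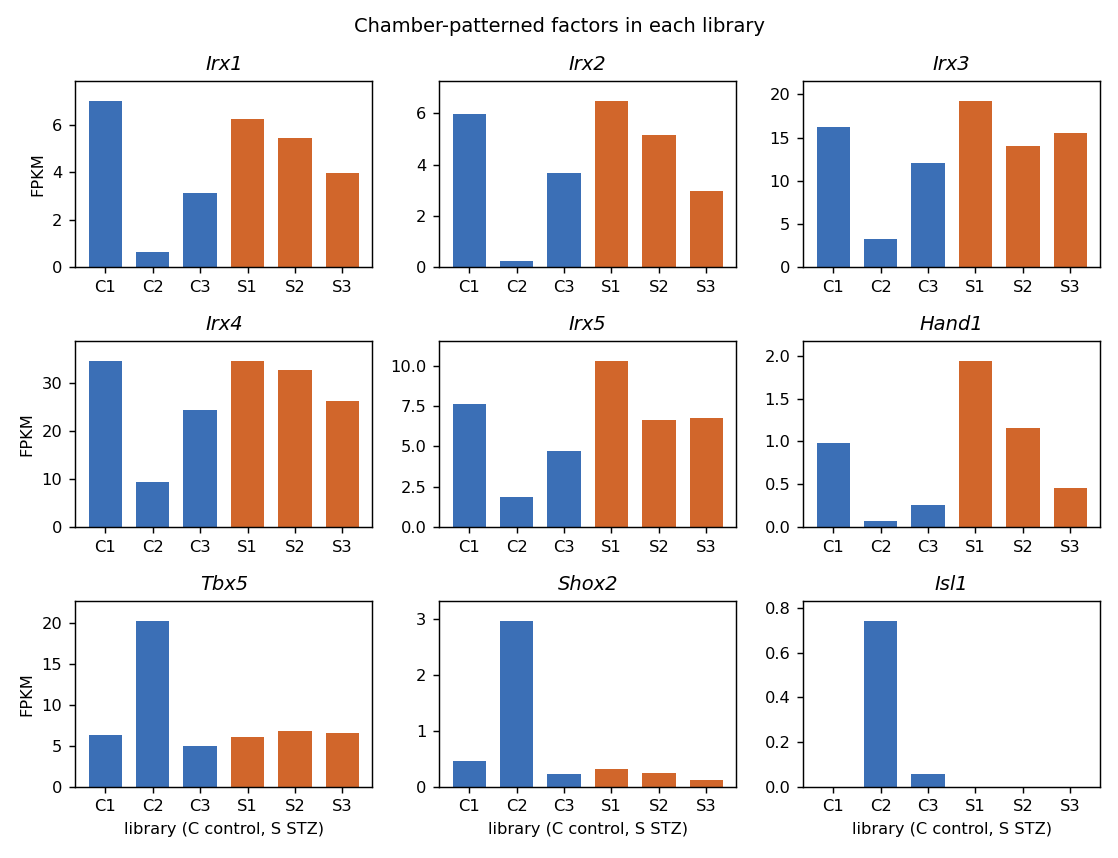
FPKM of 9 chamber-patterned factors in each library, from 0, with blue bars for controls 1 to 3 and orange bars for STZ 1 to 3. The second blue bar is the lowest for Irx1 to Irx5 and Hand1 and the highest for Tbx5, Shox2 and Isl1, and the other 5 bars overlap between groups.

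Tbx2, Tbx3 and Tbx20 lay close together in all 6 libraries. Tbx2 (chromosome 11, 85832551 to 85841948, plus strand), a repressor of the chamber program in the atrioventricular canal, was at 7.24, 6.85 and 6.69 FPKM in control and at 5.81, 6.63 and 6.42 FPKM in STZ libraries. All 3 STZ values lay below all 3 control values, with a log2 difference of -0.12 (SE 0.0957, 95% interval -0.35 to 0.11; limma, adjusted p = 0.922; exact permutation p = 0.1). It was -0.13 without control 2, and the groups also stayed apart when libraries were scaled to their recovered reads. Tbx3, its close relative in the conduction system, was at 2.33, 2.08 and 2.44 FPKM and at 1.94, 2.61 and 2.69 FPKM, overlapping (0.05, SE 0.130, and 0.0050 without control 2). Tbx20, which works with GATA4 and NKX2-5, was at 45.8, 41.3 and 40.7 FPKM and at 40.8, 41.5 and 45.3 FPKM. Its difference was 0.000052 (95% interval -0.27 to 0.27), and it was -0.02 without control 2 and also below 0 under 3 other scalings or tests. Tbx20 made up 71.8 to 74.6% of the summed level of the 5 T-box genes in 5 libraries and 58.3% in control 2, where Tbx5 made up 28.6%.

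Among the core activators, Gata4 (chromosome 14, 63198922 to 63271692, minus strand) was the factor whose groups did not overlap in the higher direction. It was at 53.3, 41.03 and 57.5 FPKM in control and at 60.4, 57.8 and 58.9 FPKM in STZ libraries. The margin between control 3 and STZ 2 was narrow, and it closed when libraries were scaled to recovered reads. The log2 difference was 0.23 (SE 0.151, 95% interval -0.13 to 0.59; limma, adjusted p = 0.922; exact permutation p = 0.1) and 0.09 without control 2. Gata6, which overlaps with GATA4 in function, was at 36.04, 22.1 and 35.02 FPKM and at 35.8, 36.4 and 33.6 FPKM, and its difference turned from 0.21 to -0.01 without control 2. Gata4 held 59.5 to 63.6% of the summed GATA level in every library. Nkx2-5 was at 85.1, 56.9 and 77.5 FPKM and at 99.6, 78.4 and 78.6 FPKM (0.23, SE 0.191, and 0.06 without control 2).

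With all 6 libraries 2 of the 28 tested factors did not overlap between groups, Gata4 higher and Tbx2 lower, or 7.14% beside 8.54% of all genes tested (4.92% higher and 3.62% lower). Without control 2 there were 3, with Meis2 added as higher, or 10.7% beside 17.7% of all genes (9.16% higher and 8.55% lower). Scaled to recovered reads it was Tbx2 alone, or 3.57% beside 7.98%. These counts are small and near the shares of all genes.

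Srf, the MADS-box factor of muscle and growth-response genes, was at 52.2, 31.0 and 45.5 FPKM in control and at 48.3, 59.8 and 39.2 FPKM in STZ libraries, so that, control 2 aside, the highest and the lowest were both STZ. The Srf difference of 0.20 (SE 0.235) turned to -0.01 without control 2. Its coactivator myocardin, from Myocd, was at 13.04, 6.80 and 14.9 FPKM and at 17.3, 13.5 and 17.3 FPKM. The Myocd difference of 0.50 (SE 0.271, 95% interval -0.15 to 1.14) was 0.18 without control 2, and STZ 2 lay between the controls. Hopx, which restrains SRF, was at 150.4, 70.9 and 128 FPKM and at 176, 145 and 127 FPKM (0.41, SE 0.294, and 0.09 without control 2). Of 12 tested SRF target genes, 5 were higher and 7 lower in STZ libraries, with a median log2 difference of -0.04, and 6 were on either side without control 2 (median -0.01).

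The MEF2 genes kept their proportions in every library. Mef2d, the highest of them in FPKM, was at 41.5, 23.7 and 38.4 FPKM in control and at 41.1, 37.9 and 41.7 FPKM in STZ libraries. Mef2a was at 30.8, 17.01 and 28.3 FPKM and at 29.4, 30.7 and 29.6 FPKM. In recovered reads Mef2a was above Mef2d in every library (7617 against 4178 in control 1), with a given length of 14681 against 5985 bases. Mef2c, the early cardiac member, was at 8.53, 5.58 and 8.88 FPKM and at 7.87, 7.94 and 8.997 FPKM. Mef2d held 49.5 to 52.4%, Mef2a 36.7 to 40.1% and Mef2c 10.04 to 12.05% of the summed MEF2 level across all 6 libraries, control 2 included, although its sum of 46.3 FPKM lay below the 75.6 to 80.8 FPKM of the others. Without control 2 the log2 difference was 0.01 for Mef2d, 0.02 for Mef2a and -0.07 for Mef2c.

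The cofactors that bind GATA and other factors were likewise spread across groups. Zfpm1 and Zfpm2 encode the FOG proteins, which dock on GATA factors. Zfpm1 was at 19.7, 13.5 and 14.4 FPKM in control and at 19.3, 17.02 and 17.6 FPKM in STZ libraries, and Zfpm2 at 4.63, 3.13 and 5.57 FPKM and at 4.76, 4.77 and 4.97 FPKM. Without control 2 the difference of Zfpm1 went from 0.19 to 0.09, and that of Zfpm2 turned from 0.13 to -0.06. Cited2, which brings the CBP and p300 acetyltransferases to TFAP2, was at 19.99, 13.8 and 14.7 FPKM and at 15.1, 16.6 and 13.9 FPKM, and its difference of -0.07 (SE 0.158) was -0.17 without control 2 and turned to 0.08 without control 1. Klf13, a partner of GATA4, was at 9.57, 9.86 and 9.63 FPKM and at 9.44, 9.93 and 10.7 FPKM, with a difference of 0.04 (SE 0.0937) and 0.05 without control 2.

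Prox1, a homeobox gene needed for myofibril order and for lymphatic vessels, was at 19.2, 8.07 and 17.8 FPKM in control and at 20.01, 18.4 and 19.7 FPKM in STZ libraries (0.43, SE 0.298, and 0.06 without control 2). Meis1, which promotes cell cycle exit of mouse heart muscle after birth, was at 3.70, 3.25 and 3.43 FPKM and at 3.81, 3.36 and 3.81 FPKM, a difference of 0.06 (SE 0.101) and 0.03 without control 2. Meis2 was at 2.26, 2.67 and 2.28 FPKM and at 2.39, 2.50 and 2.70 FPKM. Its 3 STZ values lay above controls 1 and 3, with a difference of 0.11 without control 2, and control 2 lay within the STZ range. Foxp1, which governs proliferation of heart muscle in the mouse embryo, was at 3.91, 4.43 and 3.98 FPKM and at 3.78, 4.47 and 4.03 FPKM (-0.0048, 95% interval -0.25 to 0.24, turning to 0.04 without control 2).

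Across the set, 0 of 28 tested factors passed an adjusted p of 0.05 in the limma fit over 12431 genes, beside 0.0241% of all genes tested. The lowest adjusted p was 0.922, and 0 factors had an unadjusted p under 0.05, beside 2.59% of all genes. Without control 1 this last count was 5, all higher in STZ libraries, beside 551 of 12431 genes. Without control 3 it was 1, also higher, beside 699 of 12431 genes. In both fits 0 factors passed the adjusted threshold (limma, lowest adjusted p = 0.775 and 0.690). Both fits kept control 2 in a smaller control group, and its part in these counts was not tested. With limma-voom on the recovered reads the counts were also 0 and 0. A missed threshold does not show that the levels were alike, and the 95% interval of Irx2, which reached furthest up, still held 2.18. With all 6 libraries 23 of 28 differences were above 0 with a median of 0.19, beside 57.7% of all genes and a median of 0.03. Without control 2 they were 19 of 28 with a median of 0.05, beside 49.4% of all genes and a median of -0.0016. There 0 factors passed (limma, lowest adjusted p = 0.9999), beside 0.0322% of all genes, and 0 had an unadjusted p under 0.05, beside 3.93%. Scaled to recovered reads they were 21 of 28 with a median of 0.13, beside 5480 of 12431 genes and a median of -0.03.

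**Figure D4:**
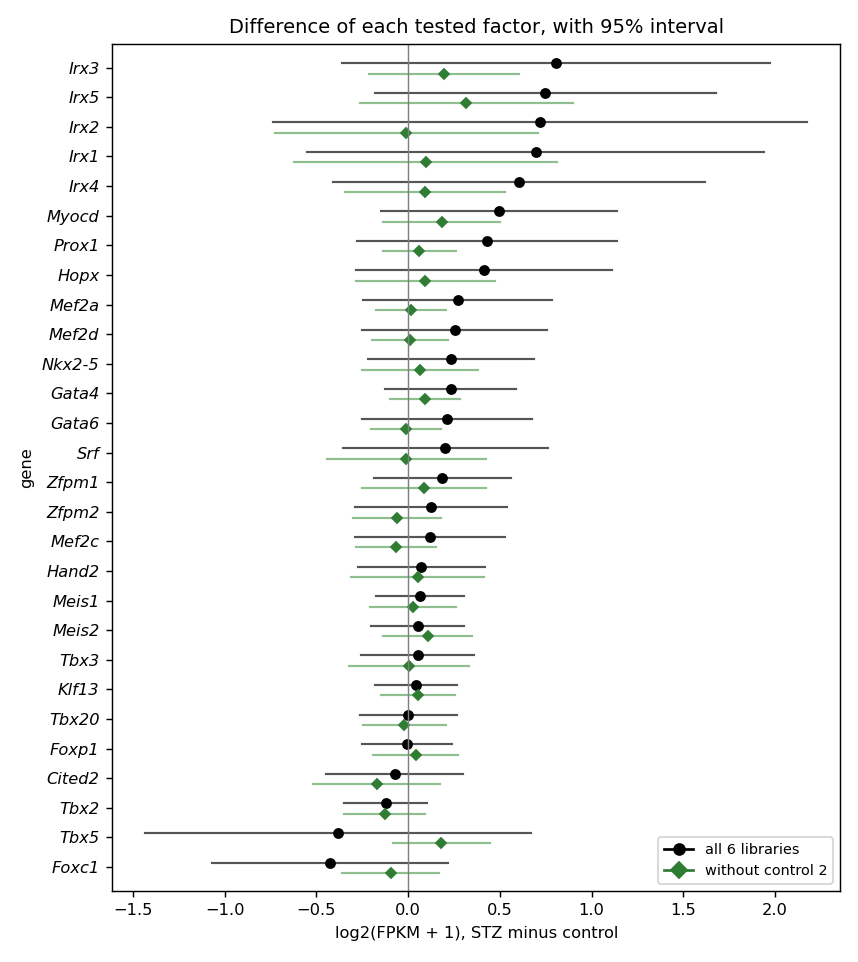
Log2 difference, STZ minus control, of the 28 tested factors, with 95% intervals from limma for all 6 libraries (black circles) and without control 2 (green diamonds). Every interval with all 6 libraries includes 0, and without control 2 the points draw in to between -0.17 (Cited2) and 0.32 (Irx5).

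Control 2 lay below all other libraries at 19 of the 28 tested factors, or 67.9%, beside 41.7% of all genes, and above them at 2, or 7.14%, beside 27.4%. When scaled to recovered reads it lay below at 16, or 57.1%, beside 22.9%, and above at 8, or 28.6%, beside 46.9%. The added factors above were Tbx2, Tbx20, Klf13, Foxp1, Meis1 and Meis2.

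Target genes of these factors were read as a list of 26, with 25 tested. Of these, 22 were higher and 3 lower in STZ libraries (median log2 difference 0.31), and none passed. Beside them, 57.7% of all genes were above 0 (median 0.03). The 3 lower targets, Nppa, Myl7 and Gja5, are also atrial markers above. Several higher ones, such as Actc1, Myh6 and Myl2, are also cardiomyocyte or ventricular markers, so the list is not separate from those markers. Without control 2, 16 targets were higher and 9 lower with a median of 0.03, beside 49.4% of all genes above 0 (median -0.0016). Actc1, the cardiac actin gene, was at 8154, 2920 and 6693 FPKM in control and at 6909, 7513 and 6513 FPKM in STZ libraries. Myh7, the slow myosin gene, kept all 3 STZ values (230, 184 and 139.8 FPKM) above all controls (107, 42.1 and 108 FPKM), with a difference of 1.19 and 0.74 without control 2 (limma, adjusted p = 0.922 with all libraries). Among 19 tested cofactors and repressors of the factors, such as the class IIa histone deacetylases that bind MEF2, 13 were higher and 6 lower (median 0.14), and 9 and 10 without control 2 (median -0.0026). Smyd1, a muscle methyltransferase gene, was at 148, 81.4 and 121 FPKM and at 162, 141 and 149 FPKM, and Hdac9 at 3.997, 1.86 and 3.56 FPKM and at 3.66, 3.23 and 3.70 FPKM.

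Some factors overlap their neighbours. Exons of 12 factors overlap those of another GENCODE M21 gene, most at Hopx, where Hopxos covers 27.2% of exon bases on the opposite strand, and at Hand2, where Hand2os1 covers 19.6%. The strand setting of the counting is not given in the sources used here, so reads in these stretches cannot be told apart.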

How the data were processed

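RNA of 6 mouse hearts was measured in 1 deposited table of 54532 genes, with groups from the treatment labels and replicate numbers from the titles. Per the submitters' processing notes the build was GRCm38 (mm10), while aligner and counting program were not given in the sources used here. The authors deposited FPKM-type values. No header states this unit, which was read from the values: multiplied by the length column of the same table and divided by 1 constant per library, all values came out whole within 0.01 reads.

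Differences were fitted on log2(FPKM + 1) by limma 3.58.1 (R 4.3.3, trend option) with group as the only term. The 12431 genes that reached 1 FPKM in 3 or more libraries entered, two-sided and Benjamini-Hochberg adjusted over all of them. A pseudocount of 1 understates differences of low genes. The exact permutation test used the 20 assignments of 3 of 6 libraries. The fit was tested on simulated libraries of equal spread with no outlying library, so that test does not cover a library such as control 2. No library pair of a group agreed within sampling noise (chi-square per degree of freedom at least 11.8). Alternatives were a pseudocount of 0.1, no filter, 2 other scalings, voom, a replicate block and each library left out.

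All 33 factors are described, and other genes come from lists of targets, cofactors, SRF targets, family members, other heart factors and cell type markers. Factors and lists were chosen with earlier results of these data known. Promoters are from RefSeq. Figures used matplotlib 3.10.9 in Python 3.11.15.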

Additional observations from a re-analysis of the deposited data

How the results depend on the processing

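The count of factors past the threshold was 0 under each of the 12 alternatives, with a lowest adjusted p of 0.690 (without control 3). Of the 28 tested factors, 16 kept their direction in every alternative. Tbx20 turned from 0.000052 to -0.013 with quantile normalization, to -0.066 with scaling to recovered reads and to -0.068 with voom. Klf13 turned from 0.042 to -0.020 with that scaling and to -0.022 with voom. Over fits without 1 library the log2 difference ran from -0.17 to 0.081 for Cited2, -0.058 to 0.040 for Foxp1, -0.010 to 0.33 for Gata6, -0.029 to 0.19 for Hand2, -0.0096 to 1.22 for Irx2 and -0.00044 to 0.080 for Klf13. It ran from -0.068 to 0.22 for Mef2c, -0.0097 to 0.36 for Srf, -0.045 to 0.052 for Tbx20, -0.0093 to 0.16 for Tbx3, -0.73 to 0.18 for Tbx5 and -0.061 to 0.27 for Zfpm2. The direction turned for 8 factors without control 2, for 4 without STZ 3, for 2 without control 3, and for 1 each without control 1 and without STZ 1. The cause was not tested. Fits that leave 2 libraries in a group pool the spread over both groups.

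Over all genes 3 passed (2 higher, 1 lower), between 2 and 5 without 1 library and 1 with voom. With the replicate number as a block 0 genes passed (limma, 373 at an unadjusted p under 0.05), and 0 factors (2 at an unadjusted p under 0.05). Same-numbered libraries correlated in their deviations from the group means over genes at 0.02, -0.04 and 0.09 for numbers 1 to 3, and control 2 correlated best with STZ 1, so the numbers are not taken as pairs. Low read counts limit the 5 factors under the filter, with 0 to 211 reads a library.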

Other observations

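Of 25 other members of the same gene families, 9 passed the filter and were tested. Of these 3 were higher and 6 lower in STZ libraries (median log2 difference -0.10), and 5 and 4 without control 2 (median 0.01). Tbx18, a T-box gene of epicardium and sinus horn, was at 6.70, 8.35 and 7.16 FPKM in control and at 4.99, 5.87 and 7.14 FPKM in STZ libraries. Cited4 and Cited1, relatives of Cited2, were more abundant than it in most libraries, at 32.95, 14.8 and 28.6 FPKM against 34.9, 34.2 and 24.6 FPKM for Cited4. Of the 25 genes, 12 were highest in control 2, among them Foxc2, at 5.25 FPKM there and 1.05 to 1.90 FPKM elsewhere, and Foxp4, at 9.06 FPKM against 4.09 to 4.93 FPKM.

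Among 23 tested other heart factors, 12 were higher and 11 lower (median 0.01), and 7 and 16 without control 2 (median -0.06). Hey2, a ventricular Notch effector, was at 5.56 FPKM in control 2 and 12.2 to 14.2 FPKM elsewhere. Twist1, of mesenchyme, was at 6.23 FPKM in control 2 and 1.76 to 2.74 FPKM elsewhere.

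Among the 5 libraries other than control 2, the highest value was 2.19 times the lowest for Irx5, 2.23 times for Irx1 and 2.19 times for Irx2. It was 1.59 times for Irx3 and 1.42 times for Irx4, and between them lay Srf at 1.53 times and Cited2 at 1.44 times. Tbx3, Hopx and Hand2 followed at 1.38 to 1.39 times. For Mef2c, Tbx2, Zfpm2, Foxp1 and Meis1, whose means lie between 3.56 and 7.97 FPKM, it was 1.13 to 1.25 times. Means of Irx3 (13.4 FPKM) and Irx4 (27.0 FPKM) lie above that range. The 4 factors under the filter with reads in each of these libraries spread more, at 7.55 times for Hand1, 4.09 times for Shox2, 3.44 times for Tbx1 and 2.52 times for Gata5. These spreads were compared after the values were seen.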
